A study of Mus musculus with 6 samples.

Results

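The genes described here are the CC chemokines measured in C2C12 myotubes, taken as every gene of the raw count table whose symbol is Ccl followed by digits. There were 6 of them among 12625 genes, namely Ccl2, Ccl7, Ccl8, Ccl5, Ccl9 and Ccl25. RefSeq lists 25 protein-coding Ccl genes in the mouse, and the other 19 are not analysed here. C2C12 is a single mouse myoblast line whose cells fuse into multinucleated myotubes. After 5 days of differentiation, the samples of 3 libraries labelled RANKL had received recombinant mouse RANKL at 100 ng per ml for 72 h, and those of 3 labelled control had received vehicle. The labels name no genetic change in either group and do not say whether replicates were separate cultures, so p-values measure the spread between these libraries and that spread may be technical. RANKL binds the receptor RANK and is the main inducer of osteoclasts, and the design asks how muscle cells respond to it.

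CC chemokines are small secreted proteins with a pair of adjacent cysteines near the start of the mature chain. They bind seven-helix receptors of the CCR class on leukocytes and draw those cells along a gradient held on matrix and cell-surface proteoglycans. Ccl2 is the main monocyte attractant and acts through Ccr2, Ccl7 is a close relative with the same receptor among its targets, and Ccl8 belongs to the same monocyte chemoattractant protein group. Ccl5 (RANTES) attracts T cells and monocytes, Ccl9 is a rodent chemokine that acts through Ccr1 and is known from osteoclasts and myeloid cells, and Ccl25 is known from thymus and small intestine and acts through Ccr9. Injured muscle is known to need Ccl2 and Ccr2 to recruit monocytes.

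Of the 6 genes, 5 rose under RANKL and 0 fell, while 5.35% of all genes tested rose, 7.5% fell and 12.9% passed the test in either direction. DESeq2 and limma-voom also called 0 lower, and 0 lay lower at an unadjusted p under 0.05. The threshold was an adjusted p under 0.05 by edgeR's quasi-likelihood test with Benjamini-Hochberg adjustment over all 12625 genes. Over all genes 41.7% of the called genes were higher, and 63.1% with total count scaling, under which the same number of CC genes was called. The rises ranged from a log2 fold change of 0.66 for Ccl8 to 4.64 for Ccl2, and Ccl25 did not pass the test. The 5 genes that rose all lie on chromosome 11 and Ccl25 lies on chromosome 8. In each of these 5 the groups did not overlap, and 14.9% of all genes had every RANKL library above every vehicle library. Low genes were absent from the deposited table, whose genes all reached at least 0.504 CPM (read counts scaled to a common library total) in 3 libraries. Ccl5 and Ccl9 did not reach that level in all 3 vehicle libraries, so these 2 genes entered the table through their RANKL libraries and the count of 5 of 6 is no rate for the family.

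The feature that gives the family its name was read from the coding sequence of each gene's protein-coding transcript in GENCODE M21 (mm10). It is shown because it is what the 6 genes share, and because it shows how far their sequences differ around it. Each line gives 30 coding bases, and the capitals mark the codons of the adjacent cysteine pair.
Ccl2: ctcaccTGCTGCtactcattcaccagcaag
Ccl7: tccacaTGCTGCtatgtcaagaaacaaaag
Ccl8: gtcaccTGCTGCtttcatgtactaaagctg
Ccl5: actcccTGCTGCtttgcctacctctccctc
Ccl9: tcagatTGCTGCctgtcctataactcacgg
Ccl25: gaagacTGCTGCctgggttaccagcacagg
The stretches lie on chromosome 11 at chr11:82036500-82036529 (plus strand) for Ccl2, chr11:82046532-82046561 (plus) for Ccl7, chr11:82116050-82116079 (plus) for Ccl8, chr11:83529224-83529253 (minus) for Ccl5 and chr11:83575908-83575937 (minus) for Ccl9, and at chr8:4353891-4353920 (plus) for Ccl25. Each coding sequence held 1 such pair, written with the same codons in all 6 genes, at codons 34 and 35 in Ccl2 and at codons 57 and 58 in Ccl9. Outside the pair the printed bases differ between the genes. Identical positions made up 64.7% of all columns, gaps included, in a global alignment of the Ccl7 and Ccl8 coding sequences. For Ccl2 and Ccl7 the share was 46.2%. These shares fall where lengths differ, and Ccl2 has 444 coding bases against 291 in Ccl7 and 291 in Ccl8. Ccl2 and Ccl7 had 207 identical bases in 448 columns, and Ccl7 and Ccl8 had 194 in 300. The shares therefore do not rank how close these genes are. None of the 75-base words of any of the 6 transcripts (739 words in Ccl2, 437 in Ccl8) occurred in a transcript of another gene on either strand, 75 bases being the read length given in the labels. Only exact matches of 1 transcript model per gene were searched. For Ccl25 that model gave 984 words, while the annotated exons of the gene together hold 7445 bases.

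On mm10 (GENCODE M21), Ccl2 spans 82035571 to 82037453 of chromosome 11 on the plus strand, Ccl7 82045712 to 82047525 and Ccl8 82115185 to 82116799. Ccl2 ends 8.26 kb before Ccl7 begins, and Ccl7 ends 67.7 kb before Ccl8. Ccl5 (83525778 to 83530518) and Ccl9 (83572919 to 83578636) lie on the minus strand of the same chromosome, 1409 kb beyond Ccl8. Ccl25 spans 4325210 to 4360020 of chromosome 8. All 6 genes are protein-coding. Exons of Ccl25 overlap exons of Elavl1 on the opposite strand, and whether counting used strand is not stated in the labels. The other 5 genes share no exon base with another annotated gene.

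RefSeq promoter entries (GRCm38.p6) were found for 2 of the 5 genes that rose, Ccl8 and Ccl9, and not for Ccl2, Ccl7 and Ccl5. The 250 bases before the start of each of these 2 genes are shown because one rose little and the other strongly, with every match to 6 searched motifs in capitals. Ccl8 is at chr11:82114935-82115184 (plus strand) and Ccl9 at chr11:83578637-83578886 (minus strand).
Ccl8: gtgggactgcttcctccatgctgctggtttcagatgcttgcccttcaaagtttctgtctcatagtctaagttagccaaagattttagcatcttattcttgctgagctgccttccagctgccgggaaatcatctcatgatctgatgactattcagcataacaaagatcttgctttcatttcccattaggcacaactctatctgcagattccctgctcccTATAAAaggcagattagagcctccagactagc
Ccl9: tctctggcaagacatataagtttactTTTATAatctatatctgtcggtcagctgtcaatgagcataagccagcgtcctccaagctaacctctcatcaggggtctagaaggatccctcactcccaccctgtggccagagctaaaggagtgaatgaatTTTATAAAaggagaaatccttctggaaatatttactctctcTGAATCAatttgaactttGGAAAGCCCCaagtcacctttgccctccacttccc
The motifs, searched on both strands, were the NF-kB decamer consensus, AP-1 (TGANTCA), the interferon-stimulated response element (GAAA, any 2 bases, GAAA), the gamma-activated site of STAT factors (TTCNNNGAA), the GC box (GGGCGG) and the TATA box (TATAAA). The Ccl9 stretch held 1 match to the NF-kB consensus at bases -35 to -26 from the start, and 1 AP-1 match at -53 to -47, whose letters match on both strands. Among 32851 RefSeq promoter stretches of the same length, 7.25% held the NF-kB consensus and 6.75% the AP-1 letters. The Ccl8 stretch held a TATA box at -32 to -27, and Ccl9 held TATA letters at -92 to -87 that overlap a match on the other strand at -94 to -89, and another match on that strand at -224 to -219. TATA letters stood in 12.4% of all stretches. No other motif matched in these windows. The shares for the motifs without a match were 2.98% for the response element, 7.02% for the gamma-activated site and 32.7% for the GC box.

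Ccl2 had the smallest p of all 12625 genes and ranked 7 by log2 fold change. Its change was the largest fitted among the CC genes, but the interval of Ccl5 contains it, and without vehicle replicate 1 Ccl5 stood at 5.21 and Ccl2 at 4.58. Its counts were 135, 96 and 181 in vehicle replicates 1, 2 and 3 and 3392, 3323 and 3162 in RANKL replicates 1, 2 and 3. In CPM of the TMM-scaled library total these were 3.47, 2.89 and 4.90 under vehicle and 90.0, 97.6 and 95.5 under RANKL. The lowest RANKL library stood 18.4 times above the highest vehicle library. The log2 fold change was 4.64 ± 0.09 (SE), with a 95% interval of the fold from 21.7 to 28.7 and an adjusted p of 3.03e-13 by edgeR.

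Ccl7, the next measured member along the chromosome, ranked 3 by p. It had 6.95, 6.13 and 7.58 CPM in vehicle replicates 1 to 3 and 36.0, 35.4 and 36.6 CPM in RANKL replicates 1 to 3. The RANKL libraries lay close together and at least 4.67 times above every vehicle library. The fold was 5.21 (95% interval 4.72 to 5.76, log2 2.38 ± 0.07, adjusted p = 1.06e-11 by edgeR).

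Ccl8, the next measured member along the plus strand, rose least. Ccl11 and Ccl12, which lie between Ccl7 and Ccl8 in RefSeq, are not analysed here. Its values were 3.94, 3.67 and 4.63 CPM under vehicle and 5.94, 6.23 and 7.18 CPM under RANKL. The groups did not overlap, but the lowest RANKL library was only 1.28 times the highest vehicle library. The fold was 1.58 (95% interval 1.33 to 1.87, log2 0.66 ± 0.12, adjusted p = 0.00197 by edgeR).

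Ccl5 had 2, 0 and 1 counts in vehicle replicates 1 to 3 and 27, 21 and 21 in RANKL replicates 1 to 3. A count of 0 still allows up to 3 counts, or 0.0756 to 0.0917 CPM depending on the library, and the vehicle values all lie below that limit. The RANKL values were 0.716, 0.617 and 0.634 CPM, all above that limit. Summed over libraries the 3 vehicle counts and 69 RANKL counts gave a ratio of 23.9 (exact binomial 95% interval 7.85 to 119, counting error only). The fitted log2 fold change was 4.41 ± 0.51 (adjusted p = 6.56e-05 by edgeR), and it moved between 3.94 without vehicle replicate 2 and 5.21 without vehicle replicate 1. Ccl5 RNA was therefore detected in every RANKL library at a low level, and its vehicle level was not detectable above the limit at this depth.

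Ccl9 had 16, 26 and 25 counts under vehicle and 139, 130 and 155 under RANKL. In CPM these were 0.412, 0.781 and 0.677 against 3.69, 3.82 and 4.68. Every RANKL library was at least 4.72 times the highest vehicle library. The fold was 6.55 (95% interval 4.85 to 8.85, log2 2.71 ± 0.20, adjusted p = 9.39e-07 by edgeR). Its rise was thus of a size with that of Ccl7, whose interval it overlaps, at a lower level.

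Ccl25 had 2.55, 2.01 and 2.44 CPM under vehicle and 2.28, 2.62 and 2.14 under RANKL. The groups overlapped, with 1 RANKL library above and the other two within the vehicle range. The log2 fold change was 0.00 ± 0.15 (adjusted p = 0.994 by edgeR), with a 95% interval of the fold from 0.801 to 1.25. The interval leaves room for a change of that size in either direction and lies below the intervals of all 5 genes that rose. Elavl1, whose exons overlap those of Ccl25, had 69.1 ± 2.45 CPM under vehicle and 68.8 ± 0.346 under RANKL (SD, n = 3 in each group). How reads from the shared bases were assigned was not tested.

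**Figure D1:**
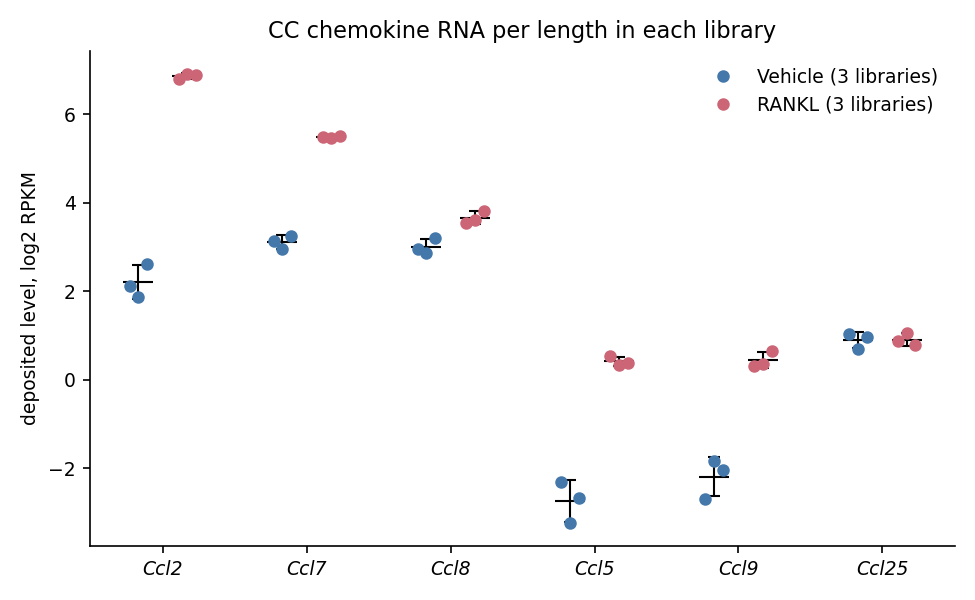
Deposited level of the 6 CC chemokine genes in log2 RPKM (y axis) for each library, with vehicle replicates 1 to 3 in blue and RANKL replicates 1 to 3 in red from left to right, and the mean and SD of each group in black. The groups are apart for every gene but Ccl25, and Ccl2 passes from below Ccl7 and Ccl8 to above them.

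**Figure D2:**
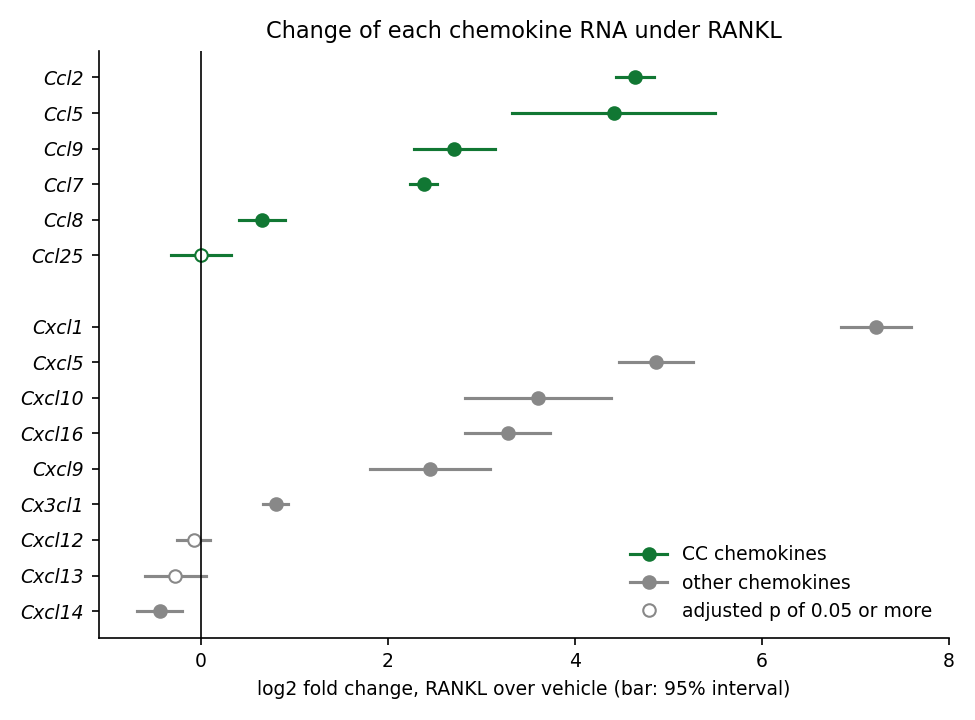
Log2 fold change of each chemokine with a row, RANKL over vehicle (x axis), with bars for the 95% interval of edgeR's test, CC chemokines in green and other chemokines in grey, open points not passing the test. Among CC chemokines the change runs from 0.00 for Ccl25 to 4.64 for Ccl2.

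Levels of different genes were compared per length, in the log2 RPKM values that the authors deposited. Under vehicle the order was Ccl7 (3.11 ± 0.15), Ccl8 (3.01 ± 0.17), Ccl2 (2.21 ± 0.38), Ccl25 (0.90 ± 0.18), Ccl9 (-2.19 ± 0.44) and Ccl5 (-2.74 ± 0.47), as mean log2 RPKM ± SD over 3 libraries. Between libraries the values of Ccl7 and Ccl8 overlapped, as did those of Ccl9 and Ccl5. Every other step in the order left the libraries apart. Within each vehicle library Ccl7 still lay above Ccl8, with 3.13, 2.95 and 3.26 against 2.97, 2.865 and 3.20 in replicates 1 to 3. Under RANKL the order became Ccl2 (6.87 ± 0.06), Ccl7 (5.50 ± 0.03), Ccl8 (3.67 ± 0.14), Ccl25 (0.91 ± 0.14), Ccl9 (0.45 ± 0.18) and Ccl5 (0.42 ± 0.11). Only the last pair did not differ beyond its spread. The deposited values carry a small prior count, so the log2 RPKM of Ccl5 and Ccl9 under vehicle are pulled up.

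Against all 12625 genes, the mean log2 RPKM of Ccl2 moved from percentile 33.3 under vehicle to 96.0 under RANKL. Ccl7 moved from percentile 47.9 to 87.2 and Ccl8 from 46.1 to 58.2. Ccl5 and Ccl9 stayed among the low genes, at percentiles 15.3 and 15.4 under RANKL, and Ccl25 stood at 19.3 and 18.9. The members that rose strongly thus ended at very different levels, with Ccl2 and Ccl7 among abundant RNAs and Ccl5 and Ccl9 among scarce ones.

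The summed RPKM of the 6 genes was 23.8 ± 3.29 under vehicle and 179.6 ± 5.62 under RANKL (SD, n = 3 in each group). Ccl2 made up 18.7%, 17.6% and 22.6% of that sum in vehicle replicates 1 to 3 and 64.5%, 66.4% and 64.7% in RANKL replicates 1 to 3. Ccl7 held 36.7% ± 1.38 under vehicle and 25.2% ± 0.894 under RANKL, and Ccl8 held 34.1% ± 0.963 and 7.08% ± 0.563. CC chemokine RNA thus passed from a mixture in which Ccl7 and Ccl8 were the larger parts to one in which Ccl2 was the largest. Without Ccl2, the sum still went from at most 21.1 RPKM in any vehicle library to at least 61.3 RPKM in every RANKL library.

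**Figure D3:**
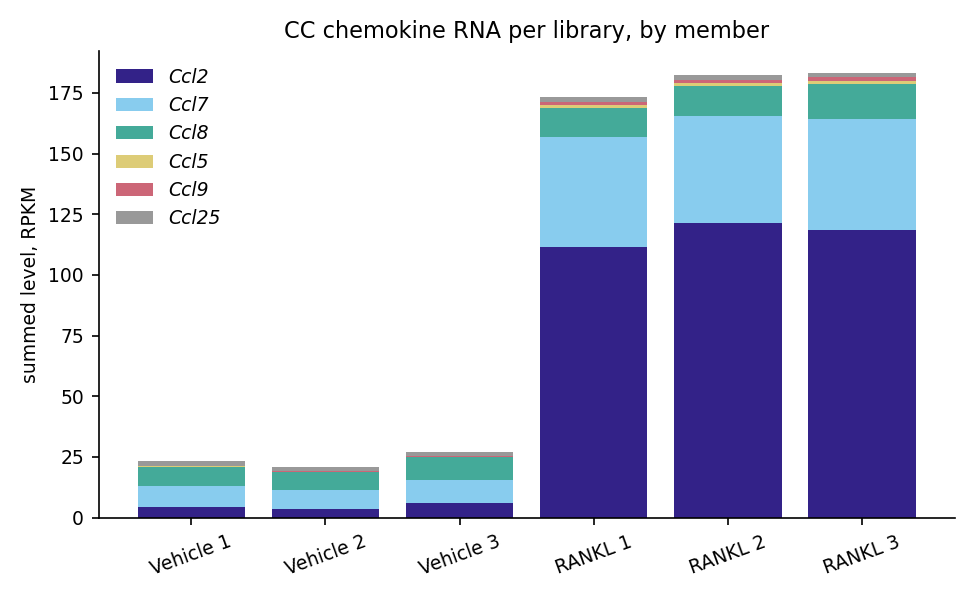
Summed RPKM of the CC chemokine genes in each library (y axis), with each bar divided by gene. The vehicle bars stand between 20.7 and 27.2 RPKM and the RANKL bars between 173 and 183 RPKM, with Ccl2 the largest part under RANKL.

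Ratios of counts between 2 members within a library need no scaling, and 4 pairs were compared in this way. There were 0.501, 0.472 and 0.647 Ccl2 counts per Ccl7 count in the vehicle libraries and 2.50, 2.76 and 2.60 in the RANKL libraries. The groups were far apart, with a log2 difference of 2.29 between their means, where the SD was 0.242 under vehicle and 0.0723 under RANKL. A two-sided exact permutation test gave p = 0.1, the smallest that 3 against 3 libraries allow (0.133 adjusted over the 4 pairs). Ccl7 counts per Ccl8 count went from 1.64 to 1.76 under vehicle to 5.09 to 6.05 under RANKL, with the same exact p of 0.1 (0.133 adjusted). The Ccl2 to Ccl8 ratio had a log2 difference of 4.02 and also an exact p of 0.1 (0.133 adjusted). The Ccl5 to Ccl9 ratio had a log2 difference of 1.58 with overlapping libraries (exact permutation p = 0.2, also 0.2 adjusted), and it rests on the 3 vehicle counts of Ccl5. For the 3 members on the plus strand, each ratio thus left the RANKL libraries apart from the vehicle libraries. The fitted rise was largest for Ccl2 and smallest for Ccl8. The exact test cannot go below 0.1 here, so it does not decide whether the rises differ. The 95% intervals of the fold from edgeR did not overlap between these members. They were 21.7 to 28.7 for Ccl2, 4.72 to 5.76 for Ccl7 and 1.33 to 1.87 for Ccl8. Ccl11 and Ccl12 lie between Ccl7 and Ccl8 and are not analysed, so no order along the cluster is drawn.

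The spread between vehicle libraries differed among members. Ccl2 varied by 27.6% of its mean (coefficient of variation) under vehicle, where counting alone would give about 8.53%, and by 4.18% under RANKL, where counting would give 1.74%. Ccl7 varied by 10.6% under vehicle and 1.76% under RANKL, and Ccl8 by 12.2% and 10.1%. Vehicle replicate 3 was the highest vehicle library and vehicle replicate 2 the lowest for all 3 of these genes. Ccl9 had its highest vehicle value in replicate 2, so it did not share that order. Leaving out vehicle replicate 3, where Ccl2 was highest, gave Ccl2 a log2 fold change of 4.88, and leaving out vehicle replicate 2 gave 4.50.

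The genes around the 2 chromosome 11 clusters were examined as the 5 nearest with a row on each side of each cluster, in RefSeq order on GRCm38.p6. Around Ccl2, Ccl7 and Ccl8 these genes lay far off, from 647.55 kb (Zfp830) to 1627 kb (Zfp207). Myo1d lay 1255.5 kb and Cdk5r1 1554.4 kb away. Close neighbours of that cluster were therefore not measured. Around Ccl5 and Ccl9 the farthest gene lay 500 kb away. Of these 20 genes 0 rose and 2 fell (5.35% and 7.5% over all genes), with 3 above vehicle at an unadjusted p under 0.05. DESeq2 and limma-voom also called 0 higher, while 2 were called higher with total count scaling and 1 each without vehicle replicate 1 or RANKL replicate 1. The genes that fell were Myo1d, an unconventional myosin (log2 fold change -0.27 ± 0.05, adjusted p = 0.00439 by edgeR), and Cdk5r1, an activator of Cdk5 (-0.21 ± 0.06, adjusted p = 0.0388). Cdk5r1 was not called without any one of the 6 libraries, with DESeq2 or with total count scaling. The closest of the 20 genes was Taf15, which lies 19.0 kb from Ccl5 and had a log2 fold change of 0.05 ± 0.04 (adjusted p = 0.443, chosen after its values were seen).

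Between the clusters lie the Schlafen genes, a family known for interferon-regulated growth control in immune cells. Slfn2 had 0.165 ± 0.0923 CPM in vehicle libraries and 0.798 ± 0.0714 in RANKL libraries. Its log2 fold change was 2.25 ± 0.34 (adjusted p = 0.000721 by edgeR), and every vehicle library lay below the 0.504 CPM that genes of the table reached in 3 libraries. Slfn5 stood at 0.85 ± 0.25 on the same scale (adjusted p = 0.0388). The call of Slfn5 ended with DESeq2, with limma-voom and when vehicle replicate 2 or 3 or RANKL replicate 1 or 3 was left out. Both were chosen after their values were seen. They were the only called genes among the 33, besides the chemokines, whose lower coordinate lies between -1500 and 3000 kb of the Ccl2 start. Myo1d, which fell, is not among the 33 because its lower coordinate lies beyond -1500 kb, although its other end lies within.

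**Figure D4:**
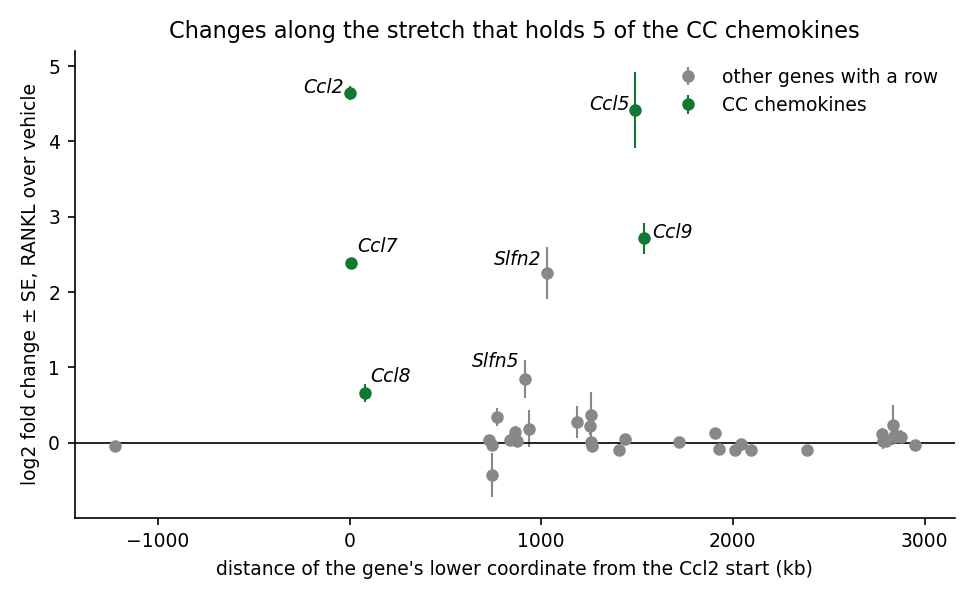
Log2 fold change with its SE (y axis) of every gene with a row, against the distance of its lower coordinate from the Ccl2 start in kb (x axis), with CC chemokines in green and 33 other genes in grey. Apart from Slfn2 at 2.25 and Slfn5 at 0.85, the other genes lie below all 5 chemokines.

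Other chemokines were compared as the classes nearest to the CC genes. Of 9 with a row, 6 rose and 1 fell (5.35% and 7.5% over all genes), and a filter at a mean of 1 CPM left 4 that rose. Those named by the rule were Cxcl1 (log2 fold change 7.22 ± 0.17), Cxcl5 (4.87 ± 0.19), both neutrophil attractants, Cxcl16 (3.28 ± 0.21), a membrane-bound chemokine, and Cx3cl1 (fractalkine, 0.80 ± 0.06), with adjusted p between 1.76e-12 and 1.46e-06 by edgeR. The summed level of the 9 went from 97.9 to 102.3 CPM in vehicle libraries to 175.6 to 234.8 CPM in RANKL libraries. The CC genes went from 17.7 ± 2.41 to 143.9 ± 4.56 CPM (SD, n = 3 in each group). Most of the vehicle sum of the 9 was Cxcl12, which was not called. It stood at 63.9 ± 1.88 CPM under vehicle and 60.7 ± 9.95 CPM under RANKL. These sums are not per length, so they do not rank the classes by level. The one that fell, Cxcl14, was not called without vehicle replicate 1 or 3 or RANKL replicate 2 or 3. Under vehicle, mean levels were 0.219 CPM for Cxcl1, 0.345 for Cxcl16, 0.157 for Cxcl9 and 0.0895 for Cxcl10. The last 2 are named with their values already seen. As Ccl5 and Ccl9 did, these genes passed the authors' removal of low genes through their RANKL libraries. The count of 6 of 9 is therefore no rate for these chemokines.

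Of 15 CC chemokine receptors and atypical receptors, 3 had a row and 0 were called in either direction (12.9% over all genes). An unadjusted p under 0.05 was seen for 2, and DESeq2 and limma-voom called 0. Ccr9, the receptor of Ccl25, had 1.21 ± 0.0400 CPM in vehicle libraries and 1.37 ± 0.385 in RANKL libraries. Its log2 fold change was 0.19 ± 0.22 (adjusted p = 0.630 by edgeR). Ackr4, a scavenging receptor that binds Ccl25 among others, stood at 0.27 ± 0.12 (adjusted p = 0.159). Ackr3, an atypical receptor known mainly for Cxcl12, had the smallest p of the list, at 0.13 ± 0.06 (adjusted p = 0.159). Ccr9 and Ackr4 are named with their values already seen. The receptors Ccr1 and Ccr2, through which Ccl9, Ccl2 and Ccl7 are known to act, are not analysed here.

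Of 20 measured transcription factors known to act on CC chemokine genes, 10 rose and 0 fell (5.35% and 7.5% over all genes). Their median log2 fold change was 0.17 against 0.00 over all genes. Those named by the rule were Irf1, an interferon-induced factor (0.60 ± 0.04, adjusted p = 7.83e-07 by edgeR), Cebpd, a factor of the acute phase response (0.92 ± 0.08, adjusted p = 4.21e-06), and the NF-kB subunits Relb (0.60 ± 0.05, adjusted p = 4.63e-06) and Nfkb2 (0.34 ± 0.03, adjusted p = 1.59e-05). Rela, the main activating subunit, stood at 0.05 ± 0.04 (adjusted p = 0.474, chosen after its values were seen). DESeq2 and limma-voom also called 0 lower, and 0 lay lower at an unadjusted p under 0.05 by edgeR. All of these changes were smaller than those of Ccl2, Ccl7, Ccl5 and Ccl9.

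Of 12 genes that govern the decay of chemokine messages, 2 rose and 1 fell (5.35% and 7.5% over all genes), with a median of -0.02. Zc3h12a, the RNase Regnase-1 that was first named for its induction by Ccl2 and that cuts inflammatory messages, rose by 1.55 ± 0.07 on the log2 scale (adjusted p = 1.67e-09 by edgeR). Its mean was 9.45 ± 0.563 CPM in vehicle libraries and 27.8 ± 1.61 in RANKL libraries. Zfp36l2, which binds AU-rich messages, rose by 0.20 ± 0.03 (adjusted p = 0.00105). Zfp36 (tristetraprolin), which also binds AU-rich messages, fell by 0.23 ± 0.07 on the log2 scale (adjusted p = 0.0322). That fall was not called with total count scaling or without any library but RANKL replicate 1.

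Of 8 measured enzymes that modify or cut CC chemokines, 2 rose and 1 fell (5.35% and 7.5% over all genes). Mmp13, a collagenase, rose by 1.01 ± 0.15 on the log2 scale (adjusted p = 0.000521 by edgeR), with 3.65 ± 0.373 CPM in vehicle and 7.40 ± 1.56 in RANKL libraries. Mmp9, a gelatinase, went from 0.261 ± 0.143 to 0.775 ± 0.119 CPM (1.58 ± 0.35, adjusted p = 0.00820). No vehicle library reached 0.504 CPM for Mmp9, so it entered the table through its RANKL libraries, and a filter at a mean of 1 CPM left 1 enzyme that rose. Mmp2, the gelatinase known to cut Ccl7 into an inactive form, fell from 478.7 ± 17.5 to 408.3 ± 41.9 CPM (-0.23 ± 0.06, adjusted p = 0.0154), and was not called without vehicle replicate 2 or 3 or with DESeq2. Without RANKL replicate 1 its log2 fold change was -0.14. Qpct and Qpctl, the glutaminyl cyclases that close the first residue of Ccl2, had log2 fold changes of 0.14 ± 0.10 and -0.02 ± 0.08 (adjusted p = 0.383 and 0.903, chosen after their values were seen).

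Among proteoglycans that can hold chemokines, the called changes were small. Of 11 measured, 1 rose and 3 fell (5.35% and 7.5% over all genes). Srgn, chosen after its values were seen, had the largest change of the list but was not called. It stood at 0.60 ± 0.29 on the log2 scale (adjusted p = 0.205 by edgeR), with 0.453 ± 0.122 CPM under vehicle and 0.691 ± 0.177 under RANKL. Vcan (versican) rose by 0.16 ± 0.04 (adjusted p = 0.0145 by edgeR), and Cspg4, Hspg2 (perlecan) and Gpc6 fell by 0.26 ± 0.05, 0.19 ± 0.05 and 0.18 ± 0.05 on the log2 scale (adjusted p = 0.00614, 0.0181 and 0.0358). The call of Vcan ended without vehicle replicate 2 or 3. That of Hspg2 ended when vehicle replicate 1 or 2 or RANKL replicate 2 was left out, and that of Gpc6 with total count scaling and without any vehicle replicate or RANKL replicate 1. Hspg2 went to -0.12 without vehicle replicate 1 and Gpc6 to -0.11 without RANKL replicate 1.

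**Figure D5:**
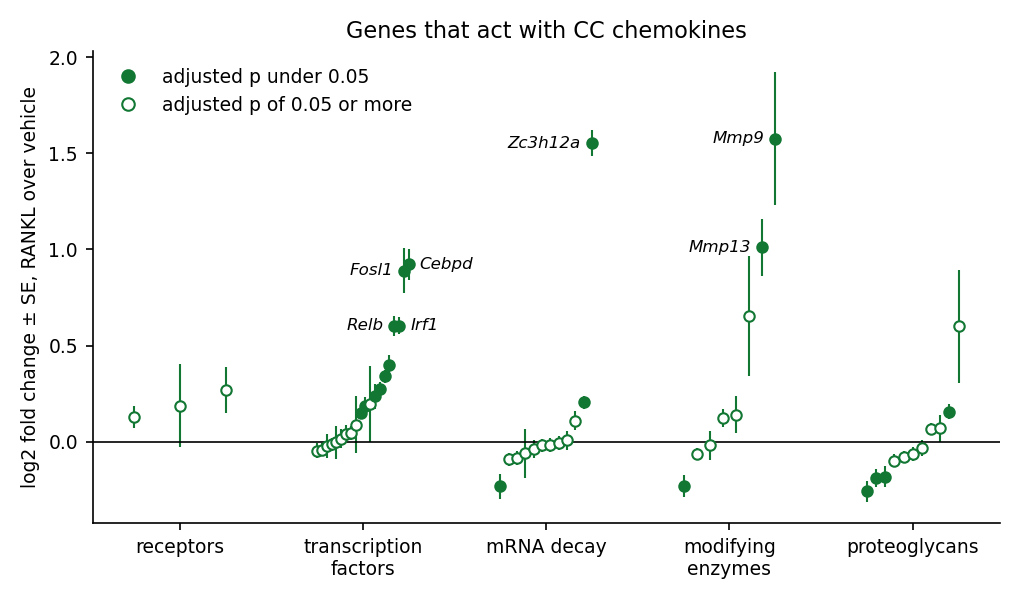
Log2 fold change with its SE (y axis) of every measured gene of 5 lists of genes that act with CC chemokines (x axis), filled where the adjusted p was under 0.05. Zc3h12a at 1.55 and Mmp9 at 1.58 stand highest, and the 3 receptors did not pass the test.

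By the distance between centred log2 CPM profiles over the 6 libraries, the genes most like Ccl2 among 11924 others with a mean of at least 1 CPM were Cxcl5 (distance 0.560), Cxcl16 (1.94), C3 (2.20), Saa3 (2.54) and Cfb (2.59). Those most like Ccl7 were Ptx3 (0.382), Gbp3 (0.441), Cfb (0.685), Gbp2 (0.804) and Ccl9 (0.817). Ccl9 was nearest to Ptx3 (0.634), Ccl7 (0.817), Gbp3 (0.905), Cxcl16 (1.10) and Cfb (1.31). The lists of Ccl7 and Ccl9 thus named each other and shared Ptx3, Gbp3 and Cfb. Ccl8 was nearest to Dact2 (0.164), Npy1r (0.218), Spdl1 (0.225), Bub1b (0.230) and C1s1 (0.234). C3, Cfb and C1s1 are complement genes, Ptx3 is a soluble pattern recognition protein, Gbp2 and Gbp3 are interferon-inducible GTPases, and Spdl1 and Bub1b act in mitosis. The 6 libraries form 2 groups, so this likeness is mostly a likeness in the size of the change.

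Total counts per library lay between 32732604 and 39677999. All 12 myotube markers had a row, with a sum of 34007 to 36645 CPM in vehicle and 31884 to 32669 CPM in RANKL libraries. Of these markers 6 fell, where 7.5% of all genes did (3 without vehicle replicate 2, 4 without vehicle replicate 1 or RANKL replicate 2). Of 5 myoblast and cycling cell markers 3 rose (5.35% over all genes), with sums of 88.1 to 96.8 and 117.2 to 137.9 CPM. Of 15 macrophage and osteoclast markers 4 had a row (Cd68, Itgam, Cd14 and Mrc1), with sums of 5.30 to 5.93 CPM under vehicle and 6.44 to 7.32 CPM under RANKL. None of the 4 was called by edgeR (12.9% over all genes), DESeq2 or limma-voom, and 1 had an unadjusted p under 0.05. None of 8 lymphocyte markers and 1 of 5 endothelial markers (Tek) had a row, and the defining markers Ptprc, Adgre1 and Csf1r are not analysed here. The myotube sum was lower under RANKL and the cycling and macrophage sums were higher, without overlap between the groups. Single markers did not all share these directions. Most of the macrophage sum was Cd14 (mean 3.619 CPM under vehicle, 4.435 under RANKL). Cd68 and Itgam were also higher in their means, while Mrc1 went from 0.608 to 0.440 CPM. Pax7 went from 0.729 to 0.593 CPM, and Myog, Ckm, Mylpf and Tnnt3 were not lower in their means. None of these genes was called. The part of these sums in the rise of the chemokines was not tested. The Tek values overlapped. In bulk RNA, fewer cells of a type and less RNA per cell cannot be told apart.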

How the data were processed

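Gene counts came from 6 RNA sequencing libraries, 3 RANKL and 3 vehicle, grouped by their labels. Per the submitters' processing notes the tools were FastQC, STAR and edgeR, with mm10 as build, and no version is given. The authors deposited whole-number counts for 12625 genes, followed by 4708 empty lines that were left out. In every gene the third-highest library had at least 0.504 CPM, so low genes had been removed before deposit. The authors also deposited log2 values, which match log2 RPKM with a prior count of 2, a reading that rests on the values. The counter, the annotation and the use of strand are not stated there.

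Tests used edgeR 4.0.16 in R 4.3.3 (TMM, filterByExpr, which removed 0 genes, quasi-likelihood F test, Benjamini-Hochberg over all genes). SE is the log2 fold change divided by the square root of F. DESeq2 1.42.0, limma-voom (limma 3.58.1), 2 other scalings, 2 other filters, a replicate block and leaving out each library were tried. The steps were tested on simulated data. Count ratios added 0.5 to each count, and their exact permutation p cannot go below 0.1. Intervals of summed counts and limits cover counting error only. The members and gene lists were chosen with earlier results of these data known. The naming rule took every CC gene, up to 4 called members of each list by smallest p (or the one with the smallest p where none was called), called neighbours, and the 5 genes nearest in profile. Older gene names were matched through RefSeq synonyms. Coding sequences were compared base by base, in place of the protein comparison first planned.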

Additional observations from a re-analysis of the deposited data

How the results depend on the processing

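The count of 5 CC chemokine genes higher and 0 lower held under the other scalings, tools and filters, with the replicate block and without each library, except that a filter at a mean of 1 CPM removed Ccl5 before testing and left 4. Each kept its direction and call. The adjusted p reached at most 0.0158 for Ccl8 and 0.000931 for Ccl5. The log2 difference of the Ccl2 to Ccl7 ratio lay between 2.20 and 2.43 without each library and was 2.28 with 2 added to each count. Over all genes, 676 were higher and 947 lower. Total count scaling gave 1070 and 626, so 63.1% of calls were higher in place of 41.7%. Leaving out 1 library gave 373 to 746 higher and 537 to 880 lower genes. The fewest came without vehicle replicate 2, and counts also fell by over 1.5 times without vehicle replicate 1 (426 and 561) and, for lower genes, without RANKL replicate 2 (596). The cause was not tested. Same-numbered libraries deviated together with correlations of 0.0693, 0.0369 and 0.0182, each the highest for its library but none above 0.1, so the numbers were not taken as pairs. With the replicate block, 730 genes were higher and 1008 lower, with 5 CC chemokine genes higher. Depth limits Ccl5, with 3 vehicle counts in all.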
